A study of Canis lupus familiaris with 12 samples.

Results

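The miRNAs of the imprinted DLK1-DIO3 domain were compared between the dog mammary tumor line CHMm, which was derived from a metastasis, and CHMmTAM, a subline of it resistant to tamoxifen (TAM). Members were chosen by name, as the listed miRNAs whose number is one of 39 numbers assigned to this domain. Earlier results of these data were known when the list was set. Of these numbers 31 matched a row and gave 35 of the 453 listed miRNAs, while miR-154, miR-412, miR-431, miR-541, miR-654, miR-655, miR-656 and miR-668 were not analysed here. Each line had 3 small RNA libraries. CHMmTAM had been selected for 10 months in rising TAM up to 10 μM, kept for 1 further month at that dose and grown for 1 week without drug, and both lines were cultured without phenol red in hormone-depleted serum. CHMmTAM is a single derived line and the labels do not say that the libraries of a line came from separate cultures. TAM resistance and other differences that arose in culture therefore cannot be told apart. The tests measure only the spread between these libraries, estimated mostly over all tested miRNAs together and not for each miRNA alone.

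The DLK1-DIO3 domain is an imprinted stretch of the genome: the paternal chromosome expresses the protein-coding genes DLK1, RTL1 and DIO3, and the maternal one expresses long non-coding RNAs from which the miRNAs are cut. One group of miRNAs, which includes miR-127, is transcribed antisense to RTL1, the gene of a retrotransposon-derived protein needed in the placenta, and represses it. A larger group further along, from miR-379 to miR-410, is abundant in brain, placenta and embryonic tissue, and the domain is often low in adult epithelia.

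In the dog RefSeq genes of the assembly UU_Cfam_GSD_1.0, 39 miRNA genes lie between DLK1 and DIO3 on chromosome 8, and 34 of the 35 members matched genes there by name. The first in order from the DLK1 side are MIR493 and MIR665, followed by MIR433, MIR127, MIR432 and MIR136, all of which lie within the span of RTL1. MIR370 comes next, and the downstream group begins with MIR379 and MIR411 and ends with MIR409 and MIR410. miR-376a has 3 genes in this order, and miR-369 matched no gene by name.

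Both lines held the domain's miRNAs at the lower end of what the libraries could detect. The values deposited by the authors are read counts of mature miRNAs, with totals from 7512659 to 12482211 per library. Levels are given as CPM, the count scaled to the library size adjusted by the TMM factors of edgeR, unless totals or all counts are named. On this scale 1 count was worth between 0.0783 and 0.137 CPM. Of the 35 members, 8 had no count in any library, 17 had between 1 and 9 counts in total over the 6 libraries, and 10 had at least 10. All 35 together gave 359 counts, against a mean level of 525079 CPM for miR-21 alone. The most abundant member, miR-127, had a mean level of 1.46 CPM, and the next, miR-381, at 1.06 CPM ranked 212 among the 453 listed miRNAs. Mature miRNAs are of nearly equal length, so CPM were compared between them without division by length.

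**Figure D1:**
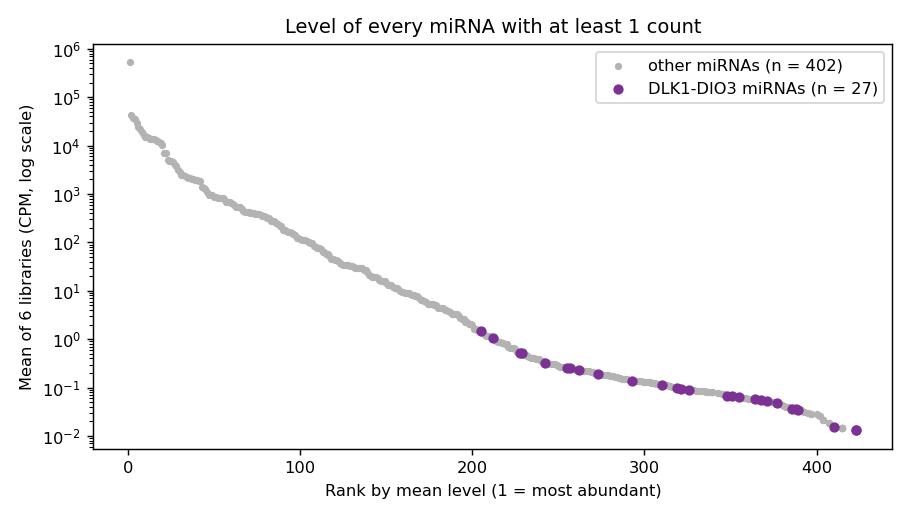
Mean level over the 6 libraries (CPM, log scale) against rank for all miRNAs with at least 1 count, with the 27 detected DLK1-DIO3 miRNAs in purple. They begin with miR-127 at 1.46 CPM and run down from there.

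The 8 members without a count were miR-136 and miR-433 of the RTL1-antisense group, and miR-376c, miR-380, miR-485, miR-539, miR-543 and miR-889 of the downstream group. A count of 0 over the 3 libraries of a line allows a level of up to 0.108 CPM in CHMm and 0.0947 CPM in CHMmTAM. This limit was taken as 3 counts over the library totals and covers counting error only. The members at 0 made up 22.9% of the members, while 16 of the 418 other listed miRNAs, or 3.83%, were at 0. Of the other listed miRNAs of the domain, which are outside the 39 numbers, miR-300 and miR-1185 were also at 0 in all libraries and miR-3958 had 1 count, in CHMm. Thus 10 of the 24 listed miRNAs without any count belong to this domain. Their neighbours on the same chromosome, outside the imprinted stretch, were expressed in both lines. miR-342 averaged 24.8 ± 4.52 CPM across CHMm and 43.9 ± 4.21 CPM across CHMmTAM (SD, n = 3 each), and miR-345 averaged 13.2 ± 0.929 CPM and 19.2 ± 0.0626 CPM. Both rose, with log2 fold changes of 0.83 (FDR = 6.67e-14) and 0.55 (FDR = 0.000129) by edgeR's quasi-likelihood test. miR-203, an epithelial miRNA further along that chromosome, was at 2170 ± 28.0 CPM and fell to 1840 ± 101 CPM (log2 fold change -0.24, FDR = 0.000785 by the same test).

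**Figure D2:**
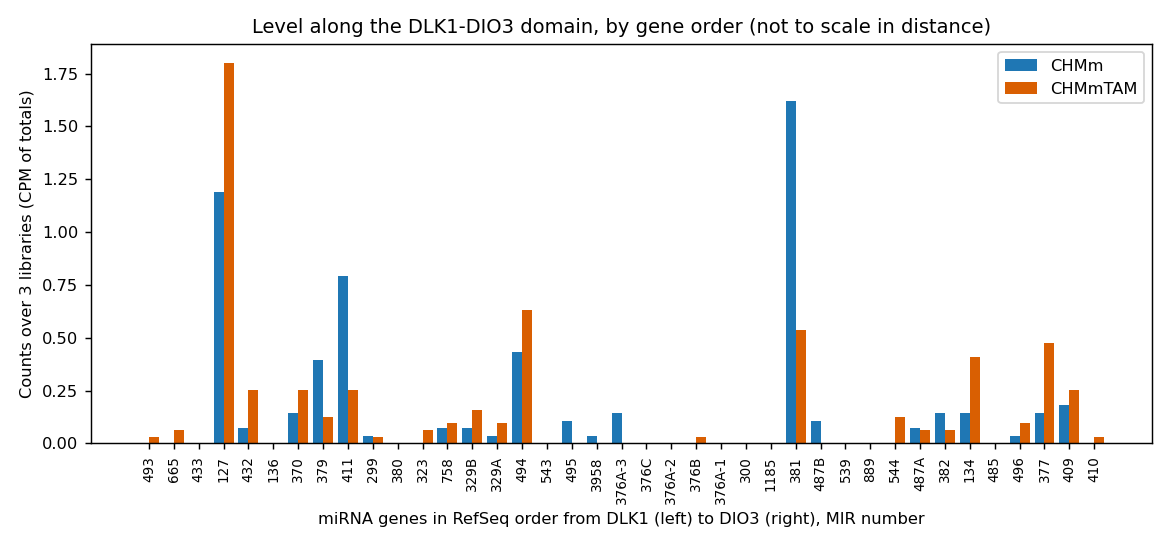
Counts over the 3 libraries of each line, as CPM of all counts, for the miRNA genes in RefSeq order from DLK1 to DIO3, with CHMm in blue and CHMmTAM in orange (gene order only, distances not drawn, miR-376a drawn once, at the first of its genes). The highest bars are miR-127 (1.19 CPM in CHMm and 1.80 CPM in CHMmTAM) and miR-381 (1.62 and 0.537 CPM), with many genes between them at or near 0.

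As a sum, the domain's miRNAs did not separate the lines. The 35 members summed to 24, 64 and 80 counts in CHMm replicates 1, 2 and 3 and to 95, 53 and 43 counts in CHMmTAM replicates 1, 2 and 3. Scaled by the TMM factors of edgeR, these were 3.28, 5.51 and 8.94 CPM in CHMm and 7.44, 4.80 and 5.40 CPM in CHMmTAM. All 3 CHMmTAM libraries lay between the lowest and the highest CHMm library. The mean was 5.91 ± 2.85 CPM across CHMm and 5.88 ± 1.38 CPM across CHMmTAM (SD, n = 3 each), a log2 ratio of -0.01, given without a test. In such bulk libraries, fewer cells that hold these miRNAs and less of them per cell cannot be told apart. Libraries of the same line differed more than their counting error, since the exact 95% Poisson intervals of CHMm replicate 1 (2.10 to 4.88 CPM) and of CHMm replicate 3 (7.09 to 11.1 CPM) did not overlap. Without CHMm replicate 3 the log2 ratio was 0.42, and without CHMm replicate 1 it was -0.30, so the level of a line depended on which library was included.

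**Figure D3:**
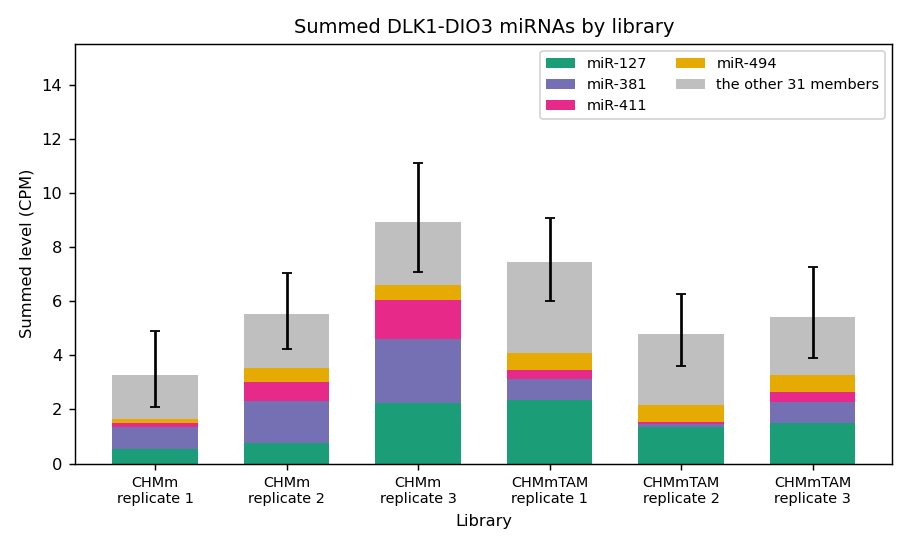
Summed level of the 35 DLK1-DIO3 miRNAs (CPM) in each of the 6 libraries, split into the 4 members with the highest total counts and the other 31, with exact 95% Poisson intervals of the sum for counting error as bars. The CHMm libraries span 3.28 to 8.94 CPM and enclose all 3 CHMmTAM libraries, while miR-381 and miR-411 fill a smaller part of the CHMmTAM bars.

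Of this sum, miR-381 and miR-411 together took 29.2%, 40.6% and 42.5% of the members' counts in CHMm replicates 1, 2 and 3, and 14.7%, 3.77% and 20.9% in CHMmTAM replicates 1, 2 and 3. Both miRNAs were picked for their lower level in CHMmTAM, as described further on, which sets the direction of these shares and raises the ratio of whatever remains. With that choice made, the other 33 members averaged 3.58 ± 1.43 CPM across CHMm and 5.08 ± 1.11 CPM across CHMmTAM (SD, n = 3 each), and the lines overlapped.

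By position, the 6 listed members of the upstream group (miR-493, miR-665 and the RTL1-antisense miRNAs) were counted 4, 10 and 21 times in CHMm and 38, 17 and 13 times in CHMmTAM. The 28 members of the downstream group were counted 19, 51 and 59 times in CHMm and 55, 32 and 28 times in CHMmTAM. On their own, each group overlapped between the lines, at 1.25 ± 0.962 CPM across CHMm and 2.05 ± 0.802 CPM across CHMmTAM upstream, and at 4.53 ± 2.0 CPM and 3.57 ± 0.704 CPM downstream (SD, n = 3 each). The upstream count per downstream count was 0.211, 0.196 and 0.356 in CHMm and 0.691, 0.531 and 0.464 in CHMmTAM, a description without a test, in which miR-127 made up most of the upstream counts (90 of 103). These ratios did not overlap between the lines. Their downstream counts include miR-381 and miR-411, which were picked for their lower level in CHMmTAM. Without both, the ratios were 0.333, 0.400 and 0.840 in CHMm and 0.927, 0.567 and 0.684 in CHMmTAM and overlapped. The downstream mean was then 2.20 ± 0.578 CPM across CHMm and 2.77 ± 0.414 CPM across CHMmTAM (SD, n = 3 each), and the lines overlapped. Leaving out members picked for a lower level in CHMmTAM moves both values this way, so no conclusion is drawn from them.

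Singly, the 10 members with at least 10 counts were tested, together with all other miRNAs that passed this filter. miR-381 and miR-411 passed FDR below 0.05, both lower in CHMmTAM, and no member passed it as higher. The study's thresholds were FDR below 0.05 and an absolute log2 fold change above 1. Applied to the edgeR fit used here, they called 2 of the 10, against 11.3% of the 284 tested miRNAs. The study's own list of changed miRNAs holds miR-381 as lower but does not hold miR-411. In the lower direction, which holds both called members, the background was 5.28%. At FDR alone the same 2 members were called, against 44.0% in either direction and 18.7% in the lower one. The tested members are far less abundant than most tested miRNAs, so the background was also taken over the 81 tested miRNAs with a total of 10 to 90 counts, the members' range, of which 6.17% were called under either rule. The median log2 fold change was 0.56 over the 10 members, of which 7 were above 0, and 0.06 over all 284. Their median standard error was 0.902, against 0.126 over all tested.

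miR-381, from the middle of the downstream group, was counted 6, 18 and 21 times in CHMm and 10, 1 and 6 times in CHMmTAM. As levels these were 0.820, 1.55 and 2.35 CPM in CHMm and 0.783, 0.0907 and 0.754 CPM in CHMmTAM. The CHMmTAM libraries lay below all CHMm libraries, but only just, and on library totals without TMM factors the nearest values, 0.799 CPM in CHMm replicate 1 and 0.801 CPM in CHMmTAM replicate 1, overlapped. The log2 fold change was -1.57 with a standard error of 0.48 (FDR = 0.00348, edgeR's quasi-likelihood test), with a 95% interval of the fold from 0.175 to 0.652. The call was lost without CHMm replicate 3 (log2 fold change -1.22, FDR = 0.0729) and without CHMmTAM replicate 2 (log2 fold change -1.05, FDR = 0.0824), and held without each of the other 4 libraries.

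miR-411, which lies beside miR-379 at the start of the downstream group, was counted 1, 8 and 13 times in CHMm and 4, 1 and 3 times in CHMmTAM. Its levels were 0.137, 0.689 and 1.45 CPM in CHMm and 0.313, 0.0907 and 0.377 CPM in CHMmTAM. CHMm replicate 1 lay within the range of CHMmTAM, so the lines overlapped. The log2 fold change was -1.60 with a standard error of 0.68 (FDR = 0.0447, edgeR's quasi-likelihood test), close to the threshold. The call was lost without CHMm replicate 2 (FDR = 0.107), CHMm replicate 3 (log2 fold change -0.87, FDR = 0.462), CHMmTAM replicate 1 (FDR = 0.071) or CHMmTAM replicate 2 (FDR = 0.203), as well as under 5 alternatives of processing.

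**Figure D4:**
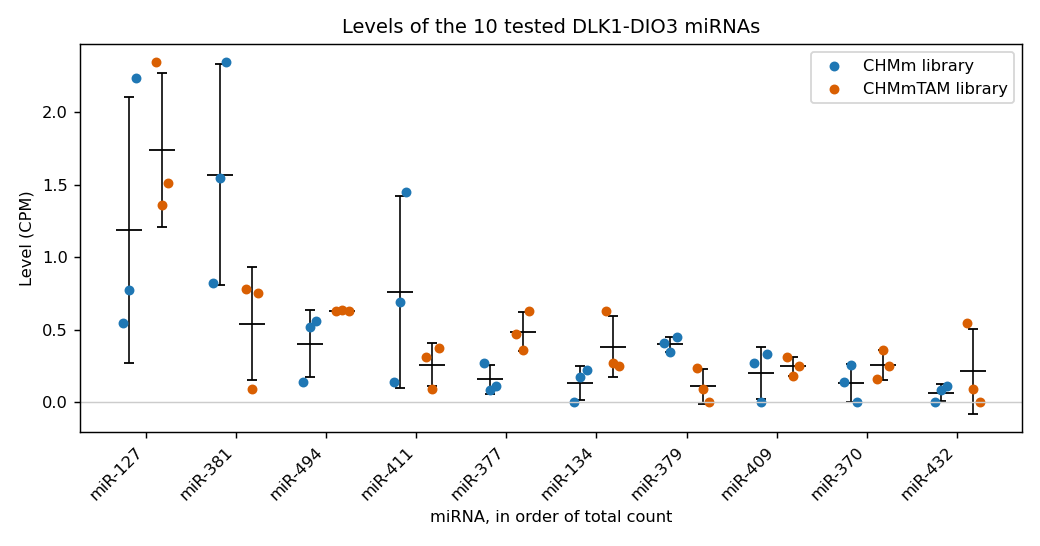
Level (CPM) of the 10 tested DLK1-DIO3 miRNAs in each library, with CHMm in blue and CHMmTAM in orange, and the mean and SD of the 3 libraries of a line as black bars. Within CHMm, miR-127, miR-381 and miR-411 spread from 0.547 to 2.24, from 0.820 to 2.35 and from 0.137 to 1.45 CPM.

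miR-379, the first miRNA of the downstream group, was counted 3, 4 and 4 times in CHMm and 3, 1 and 0 times in CHMmTAM. Its levels were 0.410, 0.344 and 0.447 CPM in CHMm and 0.235, 0.0907 and 0 CPM in CHMmTAM, without overlap. The log2 fold change of -1.56 was as large as that of miR-381 and miR-411, but its standard error was 0.94 and it did not pass the test (FDR = 0.177 from edgeR's quasi-likelihood test). The interval of the fold, from 0.0939 to 1.22, leaves room for a deep fall as well as for a slight rise. The log2 fold change depended on single libraries, at -2.61 without CHMmTAM replicate 1 and -1.16 without CHMmTAM replicate 3, and did not pass the test without any one library.

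miR-127, antisense to RTL1 and required for normal placental growth in mice, was the member with the most counts. It was counted 4, 9 and 20 times in CHMm and 30, 15 and 12 times in CHMmTAM, or 0.547, 0.775 and 2.24 CPM and 2.35, 1.36 and 1.51 CPM. CHMm replicate 3 reached the CHMmTAM range, so the lines overlapped. The log2 fold change was 0.58 with a standard error of 0.40 (FDR = 0.236, edgeR's quasi-likelihood test) with a 95% interval of the fold from 0.873 to 2.57, and without CHMm replicate 3 it was 1.36 and passed the test (FDR = 0.0192). miR-432, of the same antisense group, was counted 0, 1 and 1 times in CHMm and 7, 1 and 0 times in CHMmTAM. Its higher mean in CHMmTAM came from replicate 1 alone, and the interval of its fold ran from 0.619 to 15.7 (log2 fold change 1.64, FDR = 0.267).

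The remaining tested members of the downstream group were at a log2 fold change above 0 and none passed the test. miR-494 was counted 1, 6 and 5 times in CHMm and 8, 7 and 5 times in CHMmTAM. Its levels of 0.626, 0.635 and 0.628 CPM in CHMmTAM lay above the 0.137, 0.517 and 0.559 CPM of CHMm, with a log2 fold change of 0.54 (SE 0.64, FDR = 0.535). miR-377 was counted 2, 1 and 1 times in CHMm and 6, 4 and 5 times in CHMmTAM. The lines did not overlap and the log2 fold change was 1.64 (standard error 0.89, FDR = 0.128), with an interval of the fold from 0.930 to 10.4. Without CHMm replicate 1 it passed the test, at a log2 fold change of 2.15 and FDR = 0.045.

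miR-134, which in neurons represses the kinase LIMK1 and limits the growth of dendritic spines, was counted 0, 2 and 2 times in CHMm and 8, 3 and 2 times in CHMmTAM. Its CHMmTAM libraries lay above those of CHMm, the nearest at 0.251 CPM against 0.224 CPM, and the log2 fold change was 1.43 (standard error 0.92, FDR = 0.208). miR-409 was counted 2, 0 and 3 times in CHMm and 4, 2 and 2 times in CHMmTAM, with overlap and a log2 fold change of 0.45 (FDR = 0.752). miR-370, which lies alone between both groups, was counted 1, 3 and 0 times in CHMm and 2, 4 and 2 times in CHMmTAM, with overlap and a log2 fold change of 0.77 (FDR = 0.593). Of the 10 tested members, the lines did not overlap for miR-381, miR-379, miR-494, miR-377 and miR-134, which is 5 of 10 against 51.8% of all 284 tested miRNAs. FDR values are from edgeR's quasi-likelihood test throughout.

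**Figure D5:**
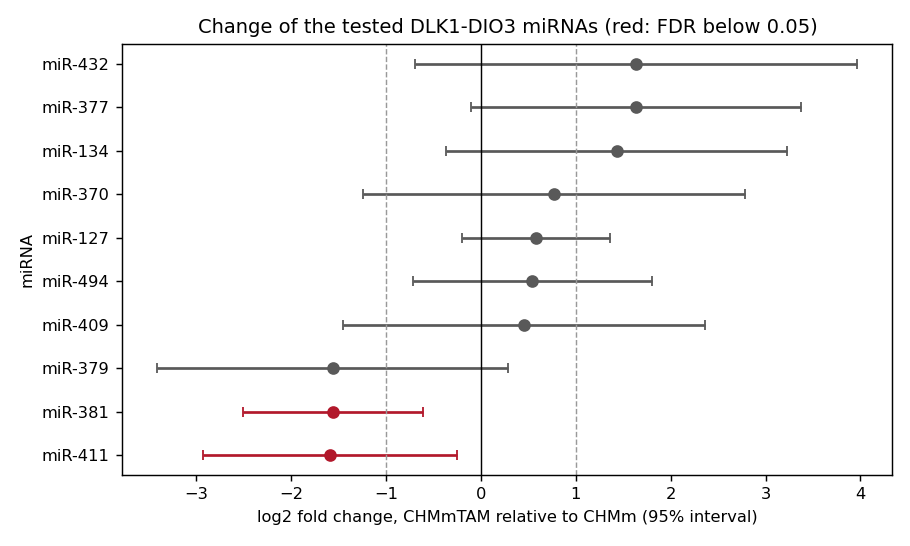
log2 fold change of CHMmTAM relative to CHMm with its 95% interval for the 10 tested DLK1-DIO3 miRNAs, with members at FDR below 0.05 in red and dashed lines at the study's fold-change thresholds of 1 and -1. The intervals of miR-381 and miR-411 end below 0, and those of the other 8 include it.

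The 17 members with 1 to 9 counts were not tested in the main fit and had at most 3 counts in any library. miR-329b reached 7 counts in total, and miR-369, miR-382, miR-758, miR-329a, miR-376a, miR-487a, miR-496, miR-544, miR-487b, miR-495, miR-299, miR-323, miR-665, miR-376b, miR-410 and miR-493 had fewer. Reads that fit several miRNAs could have been split between the near-identical names of the miR-376, miR-329 and miR-487 families. Counts in a single line occurred in both directions. In CHMm alone, miR-376a had 0, 2 and 2 counts, miR-487b 1, 1 and 1, and miR-495 0, 2 and 1. In CHMmTAM alone, miR-544 had 1, 2 and 1 counts, miR-665 0, 1 and 1, and miR-323 1, 0 and 1, while miR-376b, miR-410 and miR-493 had 1 count each. The alternative without a filter fitted all 27 members with a count, and only miR-381 passed FDR below 0.05. Counts this low leave little room to detect a difference in these members.

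Marker miRNAs of other cell types were read in the same libraries. The 7 epithelial markers summed to between 25100 and 26500 CPM in CHMm and between 22500 and 23700 CPM in CHMmTAM. Of these 3 rose and 2 fell at FDR below 0.05, which 44.0% of all 284 tested miRNAs passed. Those that fell were miR-203 and miR-205, the latter from a mean of 6000 CPM across CHMm to 3800 CPM across CHMmTAM. Those that rose were miR-429, miR-200a and miR-200b. The 4 mesenchymal markers, a cell class in which the DLK1-DIO3 miRNAs are often expressed, summed to between 39.7 and 47.6 CPM in CHMm and between 23.8 and 28.8 CPM in CHMmTAM. Most of this sum was miR-199, which fell from 37.8 ± 2.58 CPM across CHMm to 21.2 ± 2.53 CPM across CHMmTAM (SD, n = 3 each). The other markers, miR-143, miR-145 and miR-214, did not pass the test. miR-143 had 1.23, 1.38 and 3.91 CPM in CHMm and 3.68, 2.36 and 3.39 CPM in CHMmTAM, with CHMm replicate 3 above the other CHMm libraries. miR-145 and miR-214 were highest in CHMm replicate 2 among the CHMm libraries, and miR-199 lay between 36.2 and 40.8 CPM in them. Whether these cultured lines held any such cells, or whether such cells added to the values of the domain, was not tested.

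Of the other markers, the 3 tested neural miRNAs did not pass the test and summed, with all 5 listed, to between 1080 and 1120 CPM in CHMm and between 996 and 1100 CPM in CHMmTAM, nearly all of it miR-9. miR-137 was at 0 and miR-124 had a single count. The 5 blood markers summed to between 3.80 and 4.92 CPM in CHMm and between 6.97 and 8.52 CPM in CHMmTAM, with miR-142 higher at FDR below 0.05. The 5 muscle markers summed to between 8.87 and 10.8 CPM in CHMm and between 41.6 and 46.0 CPM in CHMmTAM. At FDR below 0.05, 4 of the 4 tested rose, while 44.0% of all 284 tested miRNAs passed it in either direction. Whether cells of these types were present was not tested here either.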

How the data were processed

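Small RNA libraries of CHMm and CHMmTAM (n = 3 each) were analysed, and the RNA-seq libraries were not used here. The table deposited by the authors holds raw read counts of mature miRNAs, not normalized. The submitters' processing notes name HISAT2 2.0.4, BWA and CanFam3.1. The counting tool, the miRNA database and how multiply mapping reads were handled are not given in the sources used here. Groups and replicate numbers were taken from the sample titles. miRNAs with at least 10 counts over the 6 libraries were fitted together in edgeR 4.0.16 (R 4.3.3) with TMM factors and the quasi-likelihood test, and the Benjamini-Hochberg adjustment (FDR) ran over 284 miRNAs. The standard error (SE) of a log2 fold change is its size over the root of F. The test shared its estimate of the spread over all tested miRNAs, so a member's own spread between libraries hardly entered its SE, interval or FDR. The fit was tested on simulated data, with its recovery judged only on miRNAs more abundant than most of the tested members. The simulation gave every miRNA the same spread between libraries, so it does not measure the error rate of the member calls. Libraries within a line were distinct, with a chi-square of at least 26.3 per degree of freedom. The members and lists were chosen with earlier results of these data known. Members named were those past FDR 0.05 and the 10 most abundant, the others by counts. The rule's clause on shared seeds was not applied and no sequences are printed, since mature sequences were not used here. Gene order came from RefSeq (UU_Cfam_GSD_1.0), another build than that of the notes, so no coordinates are given. Alternatives were RLE, upper-quartile and no normalization factors, DESeq2 1.42.0, limma-voom (limma 3.58.1), no filter, the filterByExpr filter, a replicate block and each library left out. The background over miRNAs of similar counts, the sums by position and their ratio were added after seeing the data. Summaries used Python 3.11.15.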

Additional observations from a re-analysis of the deposited data

How the results depend on the processing

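The number of members past FDR, with or without the fold-change threshold, was 2 under RLE and upper-quartile scaling. It was 1, miR-381, with library totals only, DESeq2, limma-voom, no filter and the replicate block, and 0 with filterByExpr, which kept 1 member, miR-127. It ranged from 0 to 3 when each library was left out. The summed log2 ratio of -0.01 stayed within the spread between replicates (SD 0.561), from -0.30 without CHMm replicate 1 to 0.50 without the members past FDR. miR-381 kept its call in 11 of 13 alternatives and miR-411 in 4 of 13. Of 123 fold changes under alternatives, 11 lost the call, 2 gained it and 1 reversed, that of miR-409, which ran from -0.27 without CHMm replicate 2 to 1.15 without CHMm replicate 3. The replicate numbers were not taken as pairs, since same-numbered libraries correlated at 0.062, 0.46 and -0.31, and the replicate block gave a log2 fold change of -1.52 for miR-381 and -1.44 for miR-411 (FDR = 0.0886). DESeq2 gave no FDR for 5 of the 10 members. Under upper-quartile scaling the median change over the 284 tested miRNAs was -0.18 instead of 0.06 on the log2 scale. Counts of a few reads per library limit every value here.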
